A study of Mus musculus with 8 samples.

Results

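Transcripts of 9 genes best known from fat cells were followed through RNA of mouse testis. The genes were Adipoq, Cfd, Retn, Lep, Car3, Fabp4, Scd1, Cidec and Plin4, and they had 16 of the 45101 probe sets of the array. Of these, 8 genes with 15 probe sets were found by the symbol in the deposited table, and Plin4, which is listed there under the older symbol S3-12, by its Entrez ID. The genes were picked because fat cell transcripts had been seen to stand high on the arrays of wildtype replicate 7 and mutant replicate 8, so their levels on that pair of arrays are given as a description, without a test. RNA came from testes taken on postnatal day 23 and was hybridised to Affymetrix Mouse430_2 arrays, with 1 array per sample. There were 5 samples labelled wildtype (replicates 1, 2, 4, 6 and 7) and 3 labelled mutant for Ctcfl (replicates 3, 5 and 8). Ctcfl encodes a DNA-binding protein of male germ cells that is related to CTCF. The study's text describes the animals of both groups as littermates kept on a C57/Bl6 background, and it calls the controls heterozygous (Ctcfl del/+) where the labels say wildtype; the mutants are Ctcfl del/del. The del allele lacks exons 1 to 8 of the gene, which were cut out in living mice with a Cre transgene driven by a chicken actin promoter. The RNA was of testis tissue and not of sorted cells, so fewer cells of a type cannot be told apart from less RNA per cell. Nothing in the labels says how many animals gave each sample, and the p-values below measure the spread between these samples. Ctcfl itself was not analysed here, so no targeted gene checked the genotype labels.

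Fat cells, or adipocytes, store triglyceride in a large lipid droplet and release fatty acids from it when other tissues need fuel. They also secrete hormones and other proteins, the adipokines, by which adipose tissue signals energy stores to the brain, liver and muscle. In the droplet, coat proteins such as perilipins and CIDEC control access of lipases to the fat, while the nuclear receptor PPARG and the C/EBP factors switch on most of the genes that make up a mature fat cell. In male mice an adipose depot lies along the epididymis, next to the testis. Germ cells, Sertoli cells and Leydig cells handle lipids as well, so several fat genes have close relatives that are active in testis itself.

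Promoter sequences of 3 of the secreted factors are shown because these genes parted ways on the arrays: Adipoq and Cfd were high on the same pair of arrays, whereas Lep was flat. Each is the run of 250 bases that ends just before the RefSeq start of the gene (GRCm38.p6, mouse), written 5′ to 3′ on the strand of the gene. The windows are chr16:23146286-23146535 for Adipoq, chr10:79890603-79890852 for Cfd and chr6:29059971-29060220 for Lep, all on the plus strand. Capitals mark matches to the motifs named after the sequences.
Adipoq: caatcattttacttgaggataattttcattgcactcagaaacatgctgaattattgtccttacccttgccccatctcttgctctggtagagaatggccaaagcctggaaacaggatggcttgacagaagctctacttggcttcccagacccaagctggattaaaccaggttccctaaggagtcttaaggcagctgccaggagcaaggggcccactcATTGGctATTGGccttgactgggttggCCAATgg
Cfd: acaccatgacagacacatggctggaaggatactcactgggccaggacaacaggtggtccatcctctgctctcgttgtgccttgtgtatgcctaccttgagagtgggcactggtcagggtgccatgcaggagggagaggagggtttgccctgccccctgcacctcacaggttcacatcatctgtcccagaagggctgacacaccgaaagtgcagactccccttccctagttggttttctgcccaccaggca
Lep: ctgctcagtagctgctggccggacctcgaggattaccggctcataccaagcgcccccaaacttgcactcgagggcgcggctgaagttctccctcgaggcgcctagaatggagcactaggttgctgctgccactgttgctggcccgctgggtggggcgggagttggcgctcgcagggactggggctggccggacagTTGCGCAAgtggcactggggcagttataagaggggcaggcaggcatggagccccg
The motifs searched on both strands were the TATA box (TATAAA), the CCAAT box (CCAAT), a nuclear receptor site (AGGTCA), a DR1 element of the kind that PPARG binds (a pair of AGGTCA copies in the same direction, 1 base apart) and the core of a C/EBP site (TTGCNNAA). Adipoq held 3 CCAAT boxes, at positions -34 to -30 and -27 to -23 on the minus strand and -7 to -3 on the plus strand, counted back from the start. Lep held 1 C/EBP core, at -55 to -48, whose letters match on both strands. Cfd held none of the motifs in this window. A CCAAT box was present in 33.85% of all 32851 mouse promoter windows of this length and a C/EBP core in 9.56%. The TATA box was in 12.37%, the nuclear receptor site in 14.02% and the DR1 element, which contains it, in 0.03%, or 11 windows. Windows were at hand for 6 of the 9 genes. Those of Cidec held 1 C/EBP core (-198 to -191), that of Plin4 held 1 CCAAT box (-18 to -14, minus strand) and that of Retn held none of the motifs. Car3, Fabp4 and Scd1 had no window.

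The arrays were alike in their overall distribution, with a median log2 level between 6.40 and 6.45. All levels below are log2 levels after robust multi-array averaging (RMA), so a difference of 1 is a 2-fold difference in signal. Precision is limited by how few arrays there are. No detection calls were used, so a low level cannot be parted from background. Wildtype replicate 7 (40.2) and mutant replicate 8 (38.2) scored apart from the other 6 arrays (-24.8 to -3.10) on the leading principal component, with 44.9% of the variance. The excess of 3′ over 5′ signal of the Gapdh control probes, which grows when RNA is degraded, measured 0.31 and 0.33 on these arrays and 0.04 to 0.22 elsewhere. That of the beta-actin probes measured 1.13 and 1.03, against 0.75 to 1.03 elsewhere. The part of RNA quality in the levels that follow was not tested.

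Adipoq (probe set 1422651_at) encodes adiponectin, an insulin-sensitising hormone made by fat cells. Its log2 level was 5.99, 6.53, 6.61, 6.62 and 8.39 on wildtype replicates 1, 2, 4, 6 and 7 and 5.55, 6.49 and 8.27 on mutant replicates 3, 5 and 8. Wildtype replicate 7 lay 1.77 and mutant replicate 8 lay 1.64 above the highest of the other 6 arrays, or 3.41-fold and 3.13-fold. Both arrays therefore stood well clear of the rest, 1 in each genotype, and the genotypes overlapped. The lowest array was mutant replicate 3.

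Cfd (1417867_at) encodes complement factor D, or adipsin, a serine protease of the alternative complement pathway that fat cells secrete. Its levels were 5.94, 6.29, 6.41, 6.79 and 8.94 on wildtype replicates 1, 2, 4, 6 and 7 and 5.94, 5.82 and 9.15 on mutant replicates 3, 5 and 8. The same pair of arrays stood above all others, by 2.16 (4.46-fold) and 2.37 (5.17-fold), and here mutant replicate 8 was the higher by 0.21.

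Retn (1449182_at) encodes resistin, a small secreted protein of rodent fat that opposes insulin action. Its levels were 7.42, 7.65, 7.56, 7.65 and 7.96 in wildtype and 7.43, 7.26 and 8.35 in mutant, in the same order of replicates. The pair was again highest, but by only 0.31 and 0.70. Lep (1422582_at) encodes leptin, the satiety hormone that reports fat mass to the hypothalamus, and it did not follow. Its levels lay between 3.82 and 4.05 on all 8 arrays, with 4.03 on wildtype replicate 7 and 3.96 on mutant replicate 8, and below the median of every array. The adipokines were thus high together for Adipoq and Cfd, slightly for Retn and not for Lep.

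Car3 encodes carbonic anhydrase III, a cytosolic enzyme that is very abundant in rodent fat cells and in slow skeletal muscle. It had 4 probe sets. On the one chosen by rule (1449434_at) the levels were 6.83, 7.73, 7.39, 7.80 and 10.02 in wildtype and 5.96, 5.83 and 9.998 in mutant. Wildtype replicate 7 and mutant replicate 8 differed by 0.022 and lay 2.22 (4.64-fold) and 2.19 (4.57-fold) above the next array. The other 3 probe sets, with levels of at most 7.53, also had the pair on top, by 1.11 and 0.95, 0.42 and 0.38, and 0.38 and 0.10. Below the pair, Car3 was spread over 1.97 log2 units, with both other mutant arrays at the bottom.

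Fabp4 encodes the fatty acid binding protein of adipocytes, also called aP2, a carrier of fatty acids in the cytosol that macrophages and endothelial cells make too. It also had 4 probe sets, and they disagreed. On the one chosen by rule (1417023_a_at) the levels were 6.03, 6.86, 6.53, 6.96 and 9.61 in wildtype and 5.12, 5.12 and 9.16 in mutant. The pair lay 2.64 (6.25-fold) and 2.19 (4.57-fold) above the others, the widest gap of the 9 genes for wildtype replicate 7. A second probe set (1451263_a_at) gave 4.35, 4.91, 4.76, 5.03 and 7.89 in wildtype and 3.58, 3.55 and 7.19 in mutant, with gaps of 2.86 and 2.16. The remaining probe sets of Fabp4 stayed at or below 4.80 on all arrays, with gaps of -0.15 and 0.30 on one and 0.05 and -0.05 on the other. The rule that chose the main probe set took the one with the highest mean level.

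Scd1 (1415964_at) encodes stearoyl-CoA desaturase, which makes monounsaturated fatty acids in liver and fat. Its levels were 7.43, 7.56, 7.44, 7.61 and 9.45 in wildtype and 7.63, 7.19 and 9.40 in mutant. The pair lay 1.83 (3.55-fold) and 1.77 (3.42-fold) above the others, which were within 0.44 of each other. The second Scd1 probe set stayed between 4.30 and 4.66 and had gaps of -0.04 and -0.14.

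The proteins of the lipid droplet differed less. Cidec (1452260_at), whose product fuses droplets into the single large one of white fat, had levels of 3.74, 3.90, 3.68, 3.82 and 4.40 in wildtype and 3.87, 3.56 and 3.98 in mutant. It was higher by 0.51 on wildtype replicate 7 and by 0.08 on mutant replicate 8 than on the next array. Plin4 (1418595_at), whose product coats small new droplets, had levels of 5.10, 5.41, 5.65, 5.34 and 5.88 in wildtype and 5.38, 5.42 and 5.80 in mutant, with gaps of 0.23 and 0.15. Both genes were below the median of every array.

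In all, 8 of the 9 genes, every one but Lep, were higher on both wildtype replicate 7 and mutant replicate 8 than on each of the other 6 arrays, a pattern held by 8.6% of all probe sets (3878). By 1 log2 unit or more, 5 of the 9 genes were higher on both (Adipoq, Cfd, Car3, Fabp4 and Scd1), and 0.335% of all probe sets (151). The genes had been chosen for these levels, so nothing is read from the difference.

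**Figure D1:**
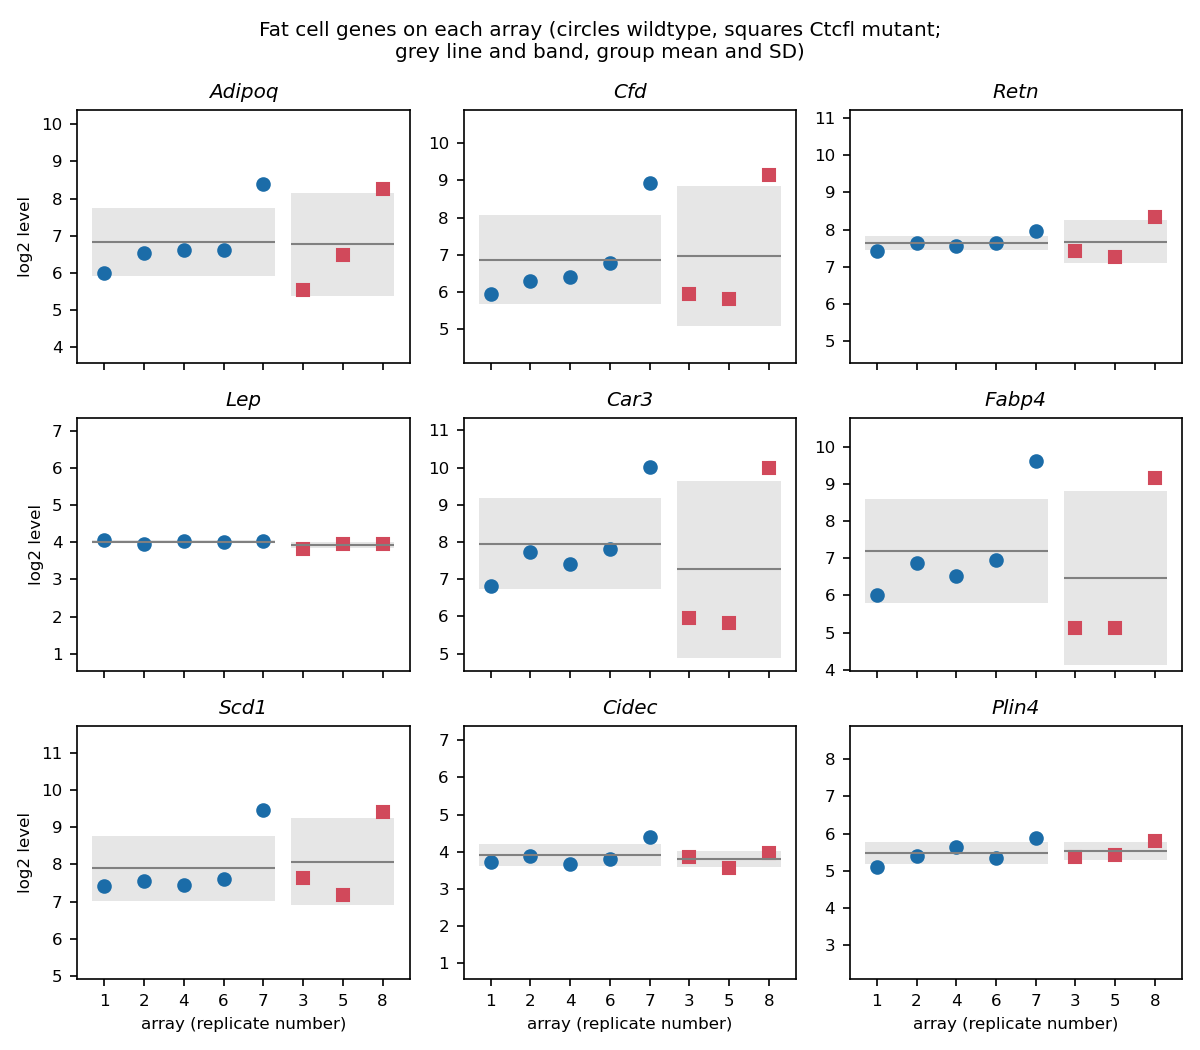
Log2 level of the main probe set of each of the 9 genes (vertical axes, each spanning the same number of log2 units) on the 5 wildtype arrays (circles) and 3 mutant arrays (squares), by replicate number; the grey line and band are the group mean and SD. Adipoq, Cfd, Car3, Fabp4 and Scd1 sit at least 1.64 above the other 6 arrays on wildtype replicate 7 and mutant replicate 8, and Lep stays between 3.82 and 4.05.

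The wider machinery of the fat cell was then read from 7 lists (adipokines, lipid droplet proteins, lipolysis, fat synthesis, fatty acid and glucose uptake, transcription factors and hormone receptors). They held 53 genes, 51 of which had a probe set. Of the 43 that are not among the 9 genes above, 12 were highest on both arrays of the pair, and 1 of them by 1 log2 unit or more. The corresponding shares of all probe sets were 8.6% and 0.335%. The main probe set of a gene was chosen for its level, whereas the shares are over all probe sets of the array. Plin1 and Me1 were not analysed here.

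The gene above by more than 1 log2 unit was Aqp7, the channel through which fat cells release glycerol and which spermatids also carry. Its levels were 7.21, 7.25, 7.24, 7.36 and 8.70 in wildtype and 6.84, 6.94 and 8.49 in mutant. The other lipolysis genes moved little on the pair: Lipe, the hormone-sensitive lipase of fat and testis, lay 0.20 and 0.11 above the other arrays, and Abhd5, a co-activator of triglyceride lipase, lay 0.40 and 0.32 above. Pnpla2, the first lipase to act on stored triglyceride, was between 10.80 and 11.07 throughout. Of the 6 lipolysis genes, 3 were highest on both arrays, where the share of all probe sets is 8.6%.

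Among the fat synthesis genes, 5 of 13 were highest on both arrays, where the share of all probe sets is 8.6%. These include Scd1, which had been chosen for its levels on the pair. Dgat2, which adds the last fatty acid to triglyceride, had levels of 9.42, 9.45, 9.68, 9.64 and 10.49 in wildtype and 9.18, 9.42 and 10.32 in mutant. Agpat2, an earlier acyltransferase of the same route, had levels of 6.15, 6.11, 6.11, 6.37 and 7.17 in wildtype and 6.22, 6.19 and 6.94 in mutant. Both were above the other arrays by 0.58 to 0.81. Lpin1, the phosphatidate phosphatase between these steps, was above by 0.55 and 0.63, and Pck1 by 0.29 and 0.21 at levels of at most 3.89. The enzymes that build fatty acids did not follow: the gaps were -0.22 and -0.14 for Fasn, fatty acid synthase, and -0.12 and -0.11 for Acaca, acetyl-CoA carboxylase.

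Fatty acid uptake was mixed. Lpl, the lipase that frees fatty acids from circulating lipoproteins, was above the other arrays by 0.37 on wildtype replicate 7 and 0.44 on mutant replicate 8. Cd36, a fatty acid transporter of fat cells, capillaries and macrophages, parted the pair. Its levels were 5.98, 6.10, 5.93, 6.24 and 7.28 in wildtype and 5.91, 6.26 and 6.16 in mutant, so that wildtype replicate 7 was above by 1.02 and mutant replicate 8 lay within the other arrays. The glucose transporter of fat and muscle, Slc2a4, had gaps of -0.13 and 0.11. Of the 6 uptake genes, 2 were highest on both arrays (Fabp4 and Lpl), where the share of all probe sets is 8.6%. Fabp4 had been chosen for its levels on the pair.

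The regulators of the fat cell programme did not share 1 pattern. Pparg was between 5.82 and 6.11 on all arrays, with gaps of -0.08 and -0.20, and Cebpa was between 7.43 and 7.68. Cebpb, a C/EBP factor of early fat cell differentiation, parted the pair, with gaps of 0.46 and -0.04. Its partner Cebpd was between 6.81 and 7.60, with gaps of -0.35 and -0.79, and Klf15 between 6.92 and 7.48, with gaps of -0.26 and -0.43. Of the 7 transcription factors, Mlxipl, a glucose-responsive activator of lipid synthesis, was the only one highest on both arrays, by 0.30 and 0.24. Of the 4 hormone receptors, Ghr, the growth hormone receptor, was, by 0.12 on both. The remaining adipokines were Agt, angiotensinogen, with gaps of 0.36 and 0.53, and Rbp4, the retinol carrier, with gaps of -0.04 and 0.14. None of the 5 receptors for adipokines was highest on both arrays, nor any of the 8 brown fat markers, where the share of all probe sets is 8.6%. Among the brown fat markers Ucp1, the uncoupling protein, was between 4.52 and 4.87. Lipid droplet proteins outside the 9 genes gave 1 such gene, G0s2, an inhibitor of triglyceride lipase (0.07 and 0.22).

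Close relatives of the 9 genes were read beside them. Of 15 paralogs with a probe set, 0 were highest on both arrays, where the share of all probe sets is 8.6%. Fabp9, the testis member of the fatty acid binding proteins, was between 13.29 and 13.38 on all arrays. Fabp5 had gaps of -0.32 and -0.41, Scd2 of -0.16 and -0.38 and Car2 of -0.16 and -0.17.

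**Figure D2:**
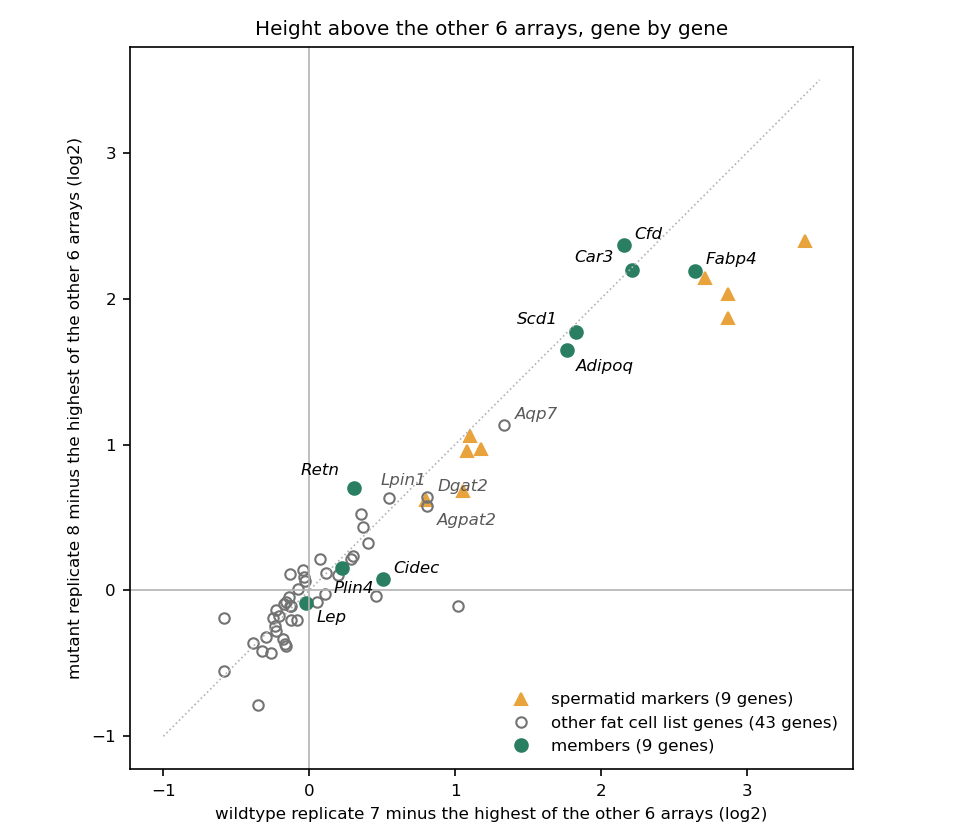
Level on wildtype replicate 7 (horizontal axis) and on mutant replicate 8 (vertical axis), each minus the highest of the other 6 arrays (log2 units), for the 9 genes (filled circles), 43 other genes of the fat cell lists (open circles) and 9 spermatid markers (triangles); the dotted line marks equal height. Cfd, Car3, Fabp4, Scd1 and Adipoq lie above 1.6 on both axes. Among the other fat genes Aqp7 lies at 1.34 and 1.13, Dgat2 at 0.81 and 0.64 and Cd36 at 1.02 and -0.11.

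Markers of other cells were read on the same arrays. All 9 of 9 spermatid markers, genes of haploid germ cells, were highest on both arrays of the pair, 5 of them by 1 log2 unit or more. The shares of all probe sets were 8.6% and 0.335%. Their mean log2 level was 8.82 to 9.50 on the other wildtype arrays and 11.46 on wildtype replicate 7, and 8.70 and 8.93 on the other mutant arrays and 10.98 on mutant replicate 8. Prm1, which encodes protamine 1 of the sperm nucleus, had levels of 8.20, 8.998, 9.41, 9.10 and 12.12 in wildtype and 8.55, 8.14 and 11.55 in mutant. Late germ cell transcripts and those of Adipoq, Cfd, Car3, Fabp4 and Scd1 were thus high on the same pair of arrays. The part of either in the other was not tested.

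Epididymal markers gave 1 of 10, near the 8.6% of all probe sets. It was Cst8, a cystatin of testis and epididymis, with gaps of 1.42 and 0.90. Crisp1, a secreted protein of the epididymal epithelium, reached 5.82 on wildtype replicate 1 and 6.38 on mutant replicate 8 and at most 3.34 on the other arrays, wildtype replicate 7 (3.28) included. Adipoq and Cfd were 5.99 and 5.94 on wildtype replicate 1, 8.39 and 8.94 on wildtype replicate 7 and 8.27 and 9.15 on mutant replicate 8. The part of epididymal tissue in these levels was not tested. The mean of the epididymal list was 5.32 to 5.62 in wildtype and 5.31 to 5.89 in mutant.

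Of the 12 skeletal muscle markers 1 was highest on both arrays (Myl1, by 0.23 on each), and of the markers of smooth muscle (5), mesothelium (5), endothelium (8), macrophages (8), red blood cells (4), fat stroma (6), Leydig cells (5) and Sertoli cells (6), 0 were. The share of all probe sets was 8.6%, and in lists this short a count of 0 or 1 is near it. Some markers, such as Acta2 (4.19 to 4.48) and Hba-a1 (4.47 to 4.79), lay below the median of every array, where a rise could be missed. The stroma of fat holds fibroblast-like precursors, and Col1a1, a collagen gene of such cells, was 10.64 and 10.65 on the pair and 10.99 to 11.49 elsewhere. The mean of the stromal list was 9.23 and 9.17 on the pair and 9.50 to 9.62 on the other arrays. The mean macrophage level was 8.05 and 7.79 on the pair, against 7.87 to 8.36, and the mean endothelial level was 6.41 and 6.43, against 6.38 to 6.57. Both are cell types that can express Fabp4, and their part in its level was not tested. The Leydig list averaged 9.26 and 8.91 on the pair and 8.86 to 9.46 elsewhere, and the Sertoli list 8.26 and 8.29 against 8.22 to 8.46. The mean of the 9 fat genes was 7.63 and 7.56 on the pair and 5.63 to 6.29 elsewhere, whereas the 43 other fat genes averaged 8.16 and 8.11 against 7.91 to 8.01.

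**Figure D3:**
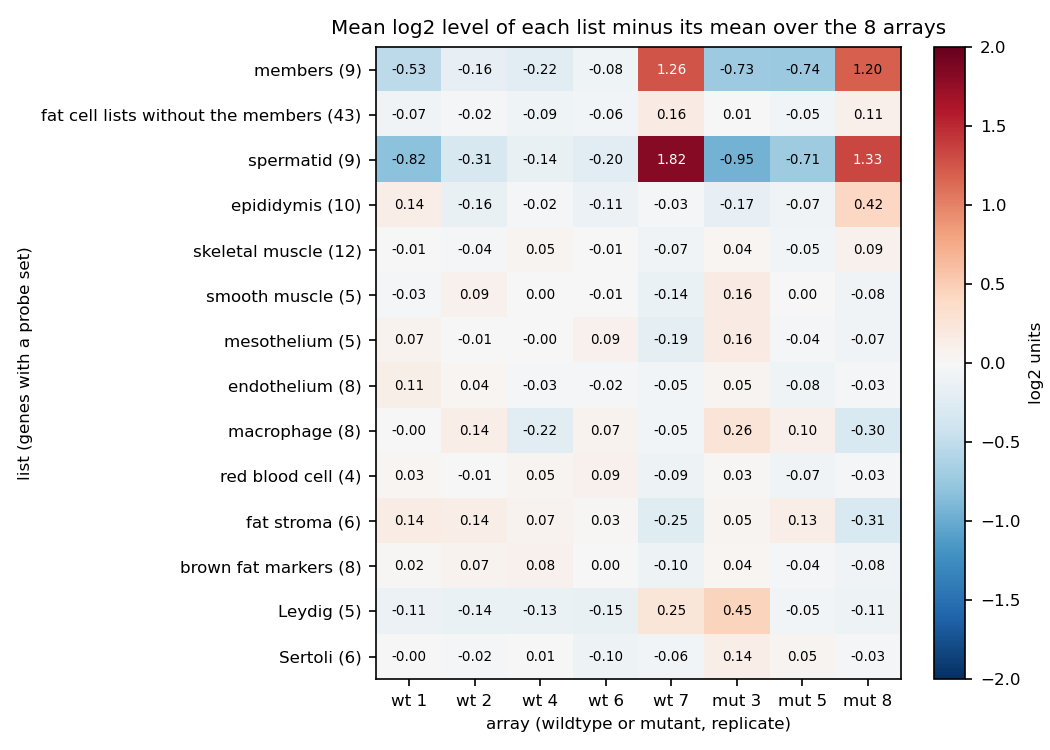
Mean log2 level of 14 lists on each array minus the list's mean over the 8 arrays (colour and printed value, log2 units); rows are lists with their number of genes, columns are the wildtype (wt) and mutant (mut) arrays by replicate. The 9 genes (members) and the spermatid list are highest on wt 7 and mut 8, and the other lists drawn here stay within 0.45 of their mean.

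The genes most like Adipoq over the 8 arrays were sought among all 20718 named genes, by the root mean square difference between levels minus their own mean. The nearest were H2bl1 (0.13), Hmgb4 (0.19), Odf3 (0.19), Iqcf3 (0.19), 1700016H13Rik (0.21), Cfap97d1 (0.21), Cypt12 (0.21), Pex5l (0.21), Spaca6 (0.21) and 4933436I01Rik (0.22). H2bl1 had levels of 6.49, 6.97, 7.21, 7.18 and 8.96 in wildtype and 6.34, 6.84 and 8.69 in mutant. Several of these genes, such as Hmgb4, Odf3 and Spaca6, are known from spermatids and sperm, and none is among the fat genes listed here. By the closest of their probe sets, the other 8 genes ranked 161 (Scd1), 201 (Car3), 254 (Cfd), 650 (Fabp4), 754 (Retn), 1074 (Plin4), 1502 (Cidec) and 7989 (Lep). On the pair, Adipoq had gaps of 1.77 and 1.64 and H2bl1 of 1.75 and 1.48. Scd1 had gaps of 1.83 and 1.77, also close to those of Adipoq, yet ranked 161. The measure takes in all 8 arrays, and the parts of the pair and of the other 6 arrays in it were not separated.

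The same measure was taken from 4 other genes after their values had been seen. The nearest gene to Fabp4 was Car3 and the nearest gene to Car3 was Fabp4, at 0.14. The next gene for either was Tnp1, a spermatid nuclear protein, at 0.42 from Fabp4 and 0.46 from Car3. Fabp4 and Car3 were hence closer to each other than either was to any other gene named on the array. Cfd was nearest to Cyp2e1 (0.18), an enzyme of liver and also of fat, and to Apoc2 (0.24), an activator of lipoprotein lipase. The 10 genes nearest to Cfd also held Prm1 (0.32) and Prm2 (0.35), which are spermatid markers. Cyp2e1 had levels of 5.11, 5.39, 5.28, 5.72 and 7.66 in wildtype and 4.90, 4.73 and 7.71 in mutant. Scd1 was nearest to Ptpro (0.14) and Mcu (0.15) and then to testis genes such as Tssk6 (0.17).

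The question of the study was what loss of Ctcfl does to gene expression in testis. With all 8 arrays, none of the 9 genes differed between genotypes by limma after Benjamini-Hochberg adjustment over all 45101 probe sets, of which 0.0% passed at 0.05. At an unadjusted p under 0.05 the count was 0 of 9, against 3.47% (1564) of all probe sets. Adipoq was 6.83 ± 0.91 (SD, n = 5) in the wildtype group and 6.77 ± 1.38 (SD, n = 3) in the mutant group, a difference of -0.06 (SE 0.63). Fabp4 was 7.20 ± 1.40 and 6.47 ± 2.33, a difference of -0.73 (SE 1.01), and Car3 7.95 ± 1.22 and 7.26 ± 2.37, a difference of -0.69 (SE 0.97). The differences of the other 6 genes lay between -0.11 and 0.17, and the limma adjusted p was 1.0 for each of the 9. The SD within each genotype was larger than the difference for every gene but Lep, which differed by -0.10 with an SD of 0.037 in wildtype and 0.08 in mutant.

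Without wildtype replicate 7 and mutant replicate 8, on 4 wildtype and 2 mutant arrays, the genotypes did not overlap for Car3, Fabp4 and, narrowly, Cfd. The arrays left out had been named by high levels of fat genes, so the values that follow are not independent of that choice. Leaving them out took 1 of 3 mutant arrays but 1 of 5 wildtype arrays. It lowered the mutant means of Car3, Fabp4 and Cfd more than the wildtype means. Car3 was 7.44 ± 0.44 (SD, n = 4) in the wildtype group and 5.90 ± 0.09 (SD, n = 2) in the mutant group, a log2 difference of -1.54 (SE 0.23), or 2.91-fold lower signal in mutant. Fabp4 was 6.60 ± 0.42 and 5.12 ± 0.0019, a difference of -1.47 (SE 0.22), or 2.78-fold lower signal. The lowest wildtype array exceeded the highest mutant array by 0.87 for Car3 and 0.90 for Fabp4. Neither passed the adjustment, with a limma adjusted p of 0.681 for each.

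A second probe set of each gene gave the same direction. The second high probe set of Fabp4 differed by -1.19 (SE 0.16, limma adjusted p 0.681) and the second of Car3 by -0.73 (SE 0.14, limma adjusted p 0.751), in both cases with both mutant arrays below all 4 wildtype arrays. Probe sets of a gene read the same RNA, so they are not separate samples. Ordered by difference from the most negative, Car3 ranked 2, Fabp4 3, the second Fabp4 probe set 5 and the second Car3 probe set 17 of 45101. Both the genes and the arrays left out had been chosen by these levels, so the ranks are a description only. The low probe sets of Fabp4 differed by 0.12 and 0.08 and the low ones of Car3 by -0.24 and -0.11.

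The remaining genes differed less. Cfd was 6.36 ± 0.35 (SD, n = 4) and 5.88 ± 0.09 (SD, n = 2), a difference of -0.48 (SE 0.19, limma adjusted p 0.761), and its lowest wildtype array was 0.0029 above its highest mutant array. Adipoq differed by -0.42 (SE 0.25, limma adjusted p 0.814) and overlapped, since mutant replicate 5 (6.49) lay above wildtype replicate 1 (5.99). Retn differed by -0.22 (SE 0.10, limma adjusted p 0.761) and also overlapped. Scd1 (-0.10), Cidec (-0.07), Lep (-0.12) and Plin4 (0.02) differed by at most 0.12.

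By count, 0 of the 9 genes and 0.0% of all probe sets passed the limma adjustment at 0.05 on these 6 arrays. At an unadjusted p under 0.05 there were 4 of 9 (Car3, Fabp4, Cfd and Retn), all lower in mutant, against 6.55% of all probe sets in either direction and 3.05% lower in mutant. Both mutant arrays lay below all 4 wildtype arrays for 3 of 9 (Car3, Fabp4 and Cfd), as for 6.97% of all probe sets, and above all 4 for 0 of 9, as for 7.9%. The median difference over the 9 genes was -0.22, and over all probe sets it was -0.0024. Only 2 mutant samples stand behind these values.

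The other fat genes had differences on both sides of 0. Over the 43 genes of the fat lists outside the 9, the median difference was 0.025. At an unadjusted limma p under 0.05, 2 were lower (Aqp7 and Dgat2) and 5 higher (Cidea, Scd2, Elovl6, Gpam and Klf15) in mutant, and 0 passed the adjustment. At that threshold 1375 of all 45101 probe sets were lower and 1581 higher in mutant. Aqp7 differed by -0.37 (SE 0.08, limma adjusted p 0.751) and Elovl6, an elongase of fatty acids, by 0.35 (SE 0.10, limma adjusted p 0.751). The spermatid markers had a median difference of -0.44 on these arrays, with 4 of 9 lower at an unadjusted p under 0.05 and 0 past the adjustment with limma. Both mutant arrays lay below all 4 wildtype arrays for 1 of 9, near the 6.97% of all probe sets. The Leydig markers had a median difference of 0.32, with 2 of 5 higher at an unadjusted p under 0.05 and 0 past the adjustment. Star, the cholesterol carrier of steroid synthesis, differed by 0.65 (SE 0.17, limma adjusted p 0.751). The excess of 3′ over 5′ signal of the Gapdh control probes also parted these arrays, at 0.05 and 0.04 in mutant and 0.11 to 0.22 in wildtype, whereas that of Actb overlapped, at 0.90 and 0.75 against 0.88 to 1.03. The part of spermatid content, Leydig content and RNA quality in the differences of Car3 and Fabp4 was not tested. The mean of the spermatid list was 8.70 and 8.93 on these mutant arrays and 8.82 to 9.50 on the 4 wildtype arrays.

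**Figure D4:**
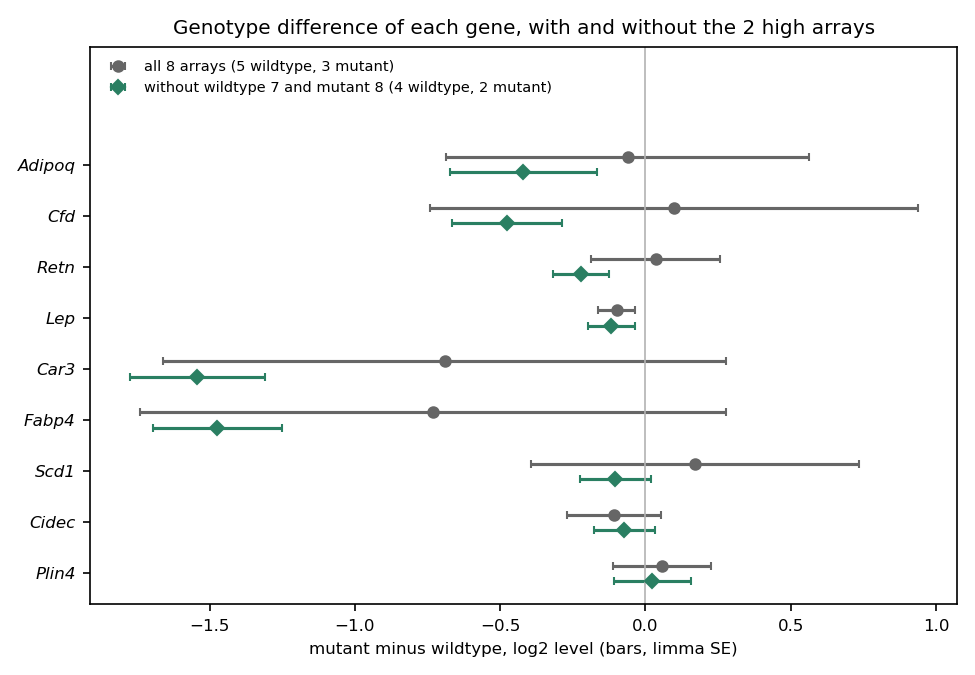
Mutant minus wildtype difference in log2 level (horizontal axis; bars are the limma SE) for each of the 9 genes, with all 8 arrays (circles, 5 wildtype and 3 mutant) and without wildtype replicate 7 and mutant replicate 8 (diamonds, 4 wildtype and 2 mutant). With 8 arrays every bar but that of Lep crosses 0; with 6 arrays Car3 and Fabp4 lie at -1.54 and -1.47 and Scd1, Cidec and Plin4 near 0.

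The order of the 6 arrays was alike for some of these genes. The main probe set of Car3 and both high probe sets of Fabp4 ran in the order wildtype replicates 6, 2, 4 and 1 and then the mutants. The second Car3 probe set (1460256_at) gave wildtype replicates 2, 4, 6 and 1 and then mutant replicates 3 and 5. Cfd gave wildtype replicates 6, 4, 2 and 1 and then mutant replicates 3 and 5. Adipoq gave wildtype replicates 6, 4 and 2, mutant replicate 5, wildtype replicate 1 and mutant replicate 3, with the top 3 within 0.09 of each other. Scd1, Cidec, Lep and Plin4 had other orders. Mutant replicate 3 was the highest array for Scd1, wildtype replicate 2 for Cidec, wildtype replicate 1 for Lep and wildtype replicate 4 for Plin4. Wildtype replicate 6 led for Retn by 0.0020, and on the main probe sets of Car3, Fabp4, Cfd and Adipoq by 0.08, 0.10, 0.38 and 0.0080 over the next array.

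**Figure D5:**
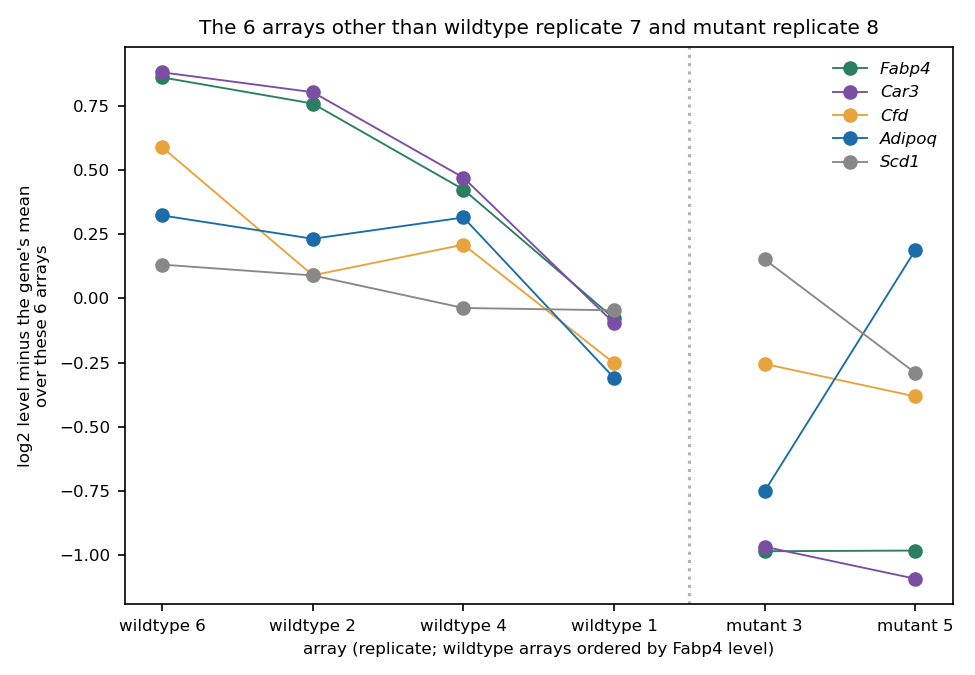
Log2 level minus the gene's mean over these 6 arrays (vertical axis) for Fabp4, Car3, Cfd, Adipoq and Scd1 on the 4 wildtype and 2 mutant arrays other than wildtype replicate 7 and mutant replicate 8; the wildtype arrays are ordered by the level of Fabp4, lines only join the points of a gene, and the dotted line parts the genotypes. Fabp4 and Car3 nearly coincide, and Scd1 spans 0.44.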

How the data were processed

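Total RNA of 8 mouse testis samples was labelled as biotinylated cRNA and hybridised to Affymetrix arrays. The study's methods say that the authors processed the scans with Affymetrix software and in R, using quantile normalisation and RMA background correction. The deposited values used here are log2 levels, 1 for each probe set on each array. Its columns of the authors' comparison (means, fold changes, p-values), and the other deposited tables, which hold that comparison only, were not used. Sample titles gave each group and replicate number. The genes and gene lists were chosen with earlier results of these data known.

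No level was changed or filtered out. All 45101 probe sets, 64 controls included, entered 1 fit in R 4.3.3 with limma 3.58.1 (lmFit, eBayes), and its two-sided p-values were adjusted over all of them by Benjamini-Hochberg. The fit was tested on simulated data. Each gene has a main probe set, one without a cross-hybridisation suffix (_s_at, _x_at, _f_at or _r_at) where there is any, and of those the one highest on average. Names came from the table's symbols, otherwise from its Entrez IDs through a RefSeq gene table (GRCm38.p6). Named were all 9 genes, any gene of the fat cell lists, the markers needed to describe other lists, and the 10 genes most like Adipoq. Each likeness compares levels minus their own mean over the 8 arrays. Tables and figures were made in Python 3.11.15 with numpy 2.4.6, pandas 2.3.3 and matplotlib 3.10.9. The closing section gives 14 alternative fits, among them each array left out in turn, both high arrays left out, array weights, median centring and a filter on low levels.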

Additional observations from a re-analysis of the deposited data

Results flagged for a closer look

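Among the 5 wildtype arrays, a single array stood far from the rest for 4 of the 9 genes. In each case it was wildtype replicate 7. Its gap to the nearest array was taken as a share of the whole range of the group. This share was 0.737 for Adipoq, 0.720 for Cfd, 0.912 for Scd1 and 0.738 for Fabp4. These values exceeded 0.71, Dixon's critical value for 5 arrays, which served only to flag them. For Car3 the share was 0.694 and for Cidec 0.702. The genes were chosen for high levels on this array, so passing the cutoff was favoured in advance and is not read as a test. The count says nothing beyond the description above. The mutant group, with 3 arrays, was not examined in this way.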

How the results depend on the processing

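No paired analysis was possible because no replicate number occurs in both genotypes. Under all 14 alternatives limma called 0 probe sets at an adjusted p of 0.05, over the 9 genes and over the whole array. The smallest adjusted p was 0.100, without wildtype replicate 7 and mutant replicate 8, where 2956 probe sets had an unadjusted p under 0.05, against 1564 with all arrays. That count was 1220 to 2649 leaving out 1 array, the last without mutant replicate 8, 2205 with array weights and 707 among the 22550 probe sets above the median level, where fewer were tested and Cidec, Lep and Plin4 dropped out. Member genes at an unadjusted p under 0.05 numbered 0, but 3 without mutant replicate 8 and 4 without both arrays, counts chosen after seeing the data.

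Leaving out 1 array turned the direction of 7 of the 9 genes, but not of Lep (-0.12 to -0.05) or Fabp4 (-2.08 to -0.06). In these fits the difference of Adipoq ranged from -0.81 to 0.55 (it was 0.33 when wildtype replicate 7 was left out, 0.55 for mutant replicate 3 and 0.079 for mutant replicate 5), that of Cfd from -0.99 to 0.67, of Car3 from -2.06 to 0.023, of Retn from -0.30 to 0.24, of Cidec from -0.20 to 0.016, of Scd1 from -0.49 to 0.61 and of Plin4 from -0.077 to 0.16. With array weights Cfd (-0.26), Retn (-0.12) and Scd1 (-0.044) reversed, as they did without both arrays (-0.48, -0.22 and -0.10). On other probe sets Scd1 reversed to -0.11 and Fabp4 to 0.24 and 0.045. The gaps of the pair on those probe sets were -0.037 and -0.14 for Scd1 and, for Fabp4, -0.15 on wildtype replicate 7 on one and -0.051 on mutant replicate 8 on the other. With median centring the gap of Lep on wildtype replicate 7 was 0.0077. An offset of 64 on the linear scale, chosen to damp low levels, reduced the gaps of Adipoq to 1.30 and 1.19, of Cfd to 1.67 and 1.86 and of Scd1 to 1.55 and 1.498, and that of Cidec on wildtype replicate 7 from 0.51 to 0.11. The cause was not tested.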
